A study of Homo sapiens with 50 samples.

Results

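The comparison described here is that of A549 cells harvested 6 h after dimethyl sulfoxide (DMSO) was added, against A549 cells harvested at the time of addition (0 h), both kept in medium that contained serine. A549 is an established human lung adenocarcinoma line. The members were taken by their sample titles and number 6 of the series' 50 arrays, 3 at 0 h and 3 at 6 h. All of these cells had been moved from RPMI to basal medium (BME) with non-essential amino acids (NEAA) and serine 24 h before the addition, and all received DMSO, the solvent in which the series' test substance, compound 16, was delivered to other cultures at 1 uM. The other arms at the same times were compound 16 with serine, DMSO in the same medium made without serine, and compound 16 without serine, with 3 arrays in each at 0 h and 3 at 6 h. No sample at these times was without DMSO or compound 16 among those analysed here, so the solvent, its addition and 6 more hours in the medium cannot be told apart. Total RNA was extracted with Trizol and hybridized to Affymetrix HG-U219 arrays. The numbers at the end of the titles are 13 to 15 at 0 h and 60 to 62 at 6 h, so array block and time cannot be told apart. Whether the 3 arrays of a group stand for separate cultures is not given by the labels, so a p-value measures only how these arrays vary, which may be technical variation. In such bulk samples, fewer cells of a kind and less RNA per cell cannot be told apart.

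DMSO is a common solvent for small molecules and is used as the vehicle control of a treatment. Immediate early genes are a class that growth factors and stress switch on within minutes and for a short time. Shortage of an amino acid leaves transfer RNAs uncharged, and the kinase GCN2 then raises translation of ATF4, a transcription factor that drives genes of amino acid synthesis, transport and tRNA charging. The kinase complex mTORC1 is switched on by amino acids and growth factors, and it favours ribosome production and cell growth.

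Values are log2 probe set signals, and a difference is the mean of the 3 arrays at 6 h minus that of the 3 at 0 h, given ± its standard error (SE) from a limma fit to all 50 arrays. A gene counts as called where its p, adjusted over all 18239 genes by Benjamini-Hochberg, was under 0.05, and "rose" and "fell" are used of called genes alone. Of these genes 852 rose and 1755 fell, together 2607 or 14.3% of those tested, with 4.67% higher and 9.62% lower. At least 2-fold changes were few, 6 of them rises and 23 falls. The largest rise was 1.37 and the largest fall -1.51 on the log2 scale, and the median gene differed by -0.02. Without adjustment 4771 genes had a p under 0.05. The values of the 3 and 3 arrays did not overlap in 5373 genes, 29.5% of all, and in 2499 of those called. Calls were rare among dim genes: in the lowest 25% by mean signal 1.16% rose and 0.75% fell, while in the highest 25% 12.0% rose and 15.3% fell. Over all genes, the SD of the differences between 2 arrays of a group lay between 0.21 and 0.24, and between an array at 0 h and one at 6 h between 0.28 and 0.31.

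The balance of rises and falls depended on the scaling. With every array centred on its own median, the median of all genes moved from -0.02 to 0.13, and 3490 genes rose and 608 fell. Quantile normalization put the median of all genes at -0.00016 and gave 1094 rises and 1212 falls. A direction is therefore relative to the deposited scaling. For 6 h against 0 h in DMSO with serine, counts of each gene list under centring are given beside it below. Those counts are to be read against the 3490 rises and 608 falls among all 18239 genes under centring. The shares of 4.67% higher and 9.62% lower belong to the deposited scaling alone. List counts at other times and in other arms are given on the deposited scaling alone, so their directions hold for that scaling only. With only the 6 arrays fitted (805 calls) most lists had fewer calls: ribosome biogenesis had 3 rises, DNA replication 4, heat shock 3, and regulators of S phase entry and NRF2 targets 1 each. Among falls, the tRNA synthetases, p53 targets and autophagy genes then had 3 each, and mitotic genes, FOXO targets, cholesterol synthesis and chemokines 5 each. MAPK feedback genes had 6. Immediate early genes and the mTORC1 list (inhibitors and the mTORC1 target EIF4EBP1) had 4 each. The amino acid response again had 13 falls and 1 rise. The control probe sets also differed between the 0 h and 6 h arrays. The poly-A control dap, a bacterial transcript added to the RNA, averaged 9.48 at 0 h and 10.26 at 6 h, and thr averaged 7.40 and 8.0. Every 6 h array lay above every 0 h array for both, and array 62 was the highest. The poly-A controls phe and lys differed by 0.31 and 0.11, with overlap. The other arms showed dap differences of 0.42 with compound 16 and serine, 0.88 with DMSO and no serine, and 0.44 with compound 16 and no serine. The hybridization controls bioB, bioC and bioD differed by 0.00 to -0.04 (bioC averaged 10.06 at 0 h and 10.04 at 6 h). Of these, bioD lay at 12.315 to 12.335 at 0 h and 12.255 to 12.310 at 6 h without overlap. The control cre lay at 13.75 to 13.77 at 0 h and, higher, at 13.82 to 13.92 at 6 h without overlap. The 23 nonspecific probe sets, a reading of background, averaged 4.18 at 0 h and 4.22 at 6 h, also without overlap. The 3′ minus 5′ signal of ACTB was 1.22 and 1.19, with overlap. The part of these shifts in the gene results was not tested. Markers of the line were high: 12 epithelial and A549 genes averaged 12.18 to 12.29 over the arrays at 0 h and 12.19 to 12.23 at 6 h. Fibroblast (10 genes), immune (11) and endothelial (10) markers averaged 4.44 to 4.89 at 0 h and 4.45 to 4.77 at 6 h, near the low end of the scale; the highest was CD68 with a mean of 7.47, and POSTN, CD14 and ITGAM fell. The call of POSTN was lost without any 1 of the 6 arrays, its levels lay near the nonspecific probe sets, and 1 of the immune markers alone was called without array 60, 61, 62, 14 or 15. Epithelial and A549 genes had 1 fall, CDH1 (E-cadherin), by 0.58 ± 0.07 at 1 of its 2 probe sets. Under centring that list had 4 rises and 1 fall, fibroblast markers 1 rise, immune markers 2 rises and 1 fall and endothelial markers no call.

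**Figure D1:**
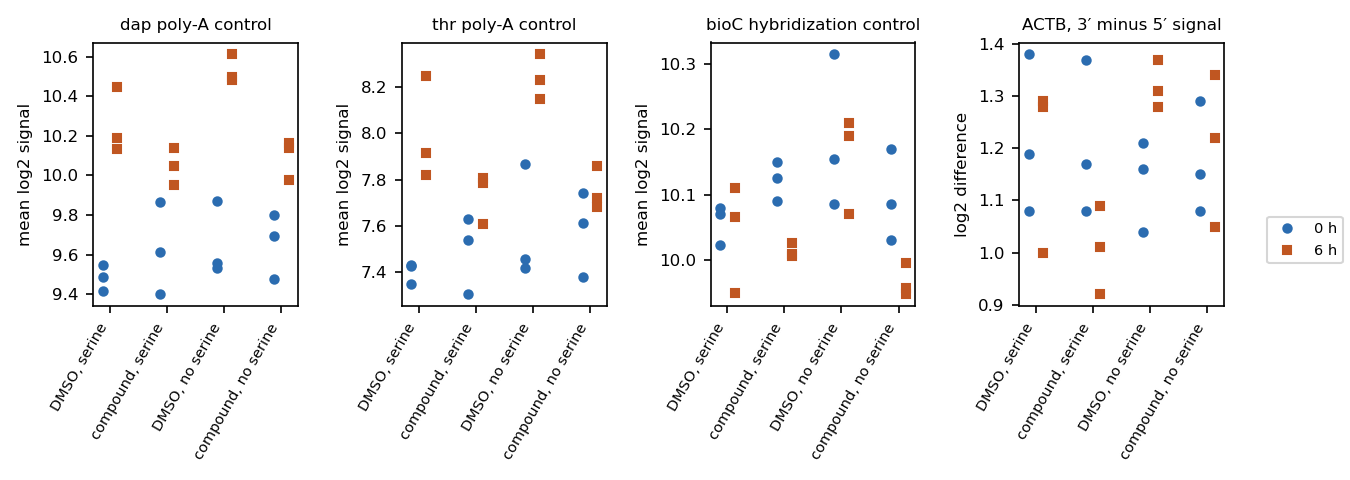
Control probe sets on the arrays of 0 h (circles) and 6 h (squares) in the 4 arms, as mean log2 signal of the poly-A controls dap and thr and the hybridization control bioC, and as log2 difference between the 3′ and 5′ probe sets of ACTB. In DMSO with serine, dap averaged 9.48 at 0 h and 10.26 at 6 h with no overlap, while bioC averaged 10.06 and 10.04.

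Genes of the amino acid response fell together. Of 20 measured members of the list of ATF4 targets and partners 13 fell and 1, ATF5, rose (ATF5 and the other lone exceptions of lists below were named after their values were seen), with a median difference of -0.43 against -0.02 over all genes. Under centring the count stayed at 13 falls and 1 rise and the median was -0.28. TRIB3, a pseudokinase that restrains ATF4 and AKT signalling, read 10.13, 10.05 and 10.24 at 0 h and 9.03, 9.03 and 8.99 at 6 h. The groups stood apart with little spread on either side, and the difference was -1.12 ± 0.07 (SE; adjusted p = 1.98e-13), or 45.9% of the 0 h level. STC2, a secreted glycoprotein induced by stress, read 6.92, 6.81 and 7.13 at 0 h and 5.52, 5.49 and 5.70 at 6 h. All 6 h arrays were below all 0 h arrays, a difference of -1.38 ± 0.17 (adjusted p = 2.11e-07) and 38.3% of the level at 0 h. ATF4 itself, with a far tighter spread, read 13.24, 13.17 and 13.13 at 0 h and 12.73, 12.73 and 12.74 at 6 h. Its transcript fell by 0.45 ± 0.05 (adjusted p = 9.24e-08).

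NUPR1, a stress-induced chromatin protein, read 9.17, 9.27 and 9.52 at 0 h and 8.52, 8.26 and 8.53 at 6 h. That is a fall to 54.4% of the 0 h level (adjusted p = 2.1e-06) with no overlap. VEGFA, the angiogenic growth factor and a known ATF4 target, differed by -0.59 ± 0.08 (adjusted p = 6.92e-07), although only 6 of its 10 probe sets were lower. CHAC1, which degrades glutathione, read 5.86, 5.72 and 5.67 at 0 h and 5.14, 4.83 and 5.0 at 6 h. Its groups were apart by -0.76 ± 0.16 (adjusted p = 0.00104). ASNS, the asparagine synthetase that serves as the textbook target of the response, read 11.89, 11.88 and 12.0 at 0 h and 11.53, 11.54 and 11.60 at 6 h. The arrays did not overlap and the fall was -0.37 ± 0.07 (adjusted p = 0.000119), to 77.6% of the 0 h level.

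The sequence that ATF4 binds with C/EBP partners is the amino acid response element, searched here as TGATGNAA on both strands of the 250 bases before each RefSeq start (GRCh38.p14). It was present before 456 of 14492 tested genes with a promoter in the RefSeq table (3.15%) and before 5 of the 17 amino acid response genes found there: ASNS, ATF3, CEBPG, CHAC1 and FGF21. Of those 5 genes 4 fell, and of the 12 without a match 7 fell and 1 rose. The stretches around the matches in ASNS (stretch chr7:97872439-97872506, minus strand; match 61 to 68 bases before the start) and CHAC1 (stretch chr15:40953232-40953299, plus strand; match 202 to 209 bases before the start, in the opposite orientation) are shown because both genes fell here; capitals mark the match.
ASNS: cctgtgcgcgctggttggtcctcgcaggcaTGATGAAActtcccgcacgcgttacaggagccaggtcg
CHAC1: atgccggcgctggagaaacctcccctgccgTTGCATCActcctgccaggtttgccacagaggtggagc

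Transcripts of serine synthesis and one-carbon metabolism were lower in 5 of 17 measured genes and higher in none, with a list median of -0.05 that turned to 0.11 under centring, where 6 rose and 4 fell. Quantile normalization gave a list median of -0.02, with 6 falls and 1 rise. PHGDH, which takes the first step of serine synthesis from glycolysis, read 10.01, 10.11 and 10.11 at 0 h and 9.63, 9.68 and 9.71 at 6 h. Its difference of -0.40 ± 0.08 had an adjusted p of 0.000508 and the arrays did not overlap. PSPH, which takes the last step, read 10.38, 10.45 and 10.39 at 0 h and 10.05, 10.09 and 10.07 at 6 h, a fall of 0.34 ± 0.06 (adjusted p = 0.000134). PSAT1, the transaminase between them, read 12.02, 11.94 and 12.0 at 0 h and 11.72, 11.83 and 11.76 at 6 h. Its arrays did not overlap either, but the difference of -0.22 ± 0.08 did not pass (adjusted p = 0.0666). MTHFD2, the mitochondrial folate enzyme, read 12.03, 12.04 and 12.01 at 0 h and 11.53, 11.49 and 11.70 at 6 h and fell to 73% (adjusted p = 1.17e-06). SHMT2, which splits serine in mitochondria, differed by -0.22 ± 0.07 (adjusted p = 0.0284), a call lost under centring and without any 1 of arrays 60, 61, 14 or 15. CBS, which joins serine to homocysteine, read 10.16, 10.15 and 10.25 at 0 h and 9.47, 9.53 and 9.63 at 6 h. All 6 of its probe sets were lower and the difference was -0.64 ± 0.08 (adjusted p = 2.12e-07).

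Of 19 measured cytosolic aminoacyl-tRNA synthetases 9 fell and none rose, with a median of -0.19; under centring the median was -0.03, with 5 falls and 4 rises, and without array 13 there was 1 rise. Quantile normalization gave a median of -0.10, with 9 falls and no rise. The alanine enzyme AARS1 read 10.41, 10.44 and 10.50 at 0 h and 9.78, 9.74 and 9.79 at 6 h, a difference of -0.68 ± 0.08 (adjusted p = 1.13e-07). The cysteine enzyme CARS1 differed by -0.54 ± 0.06 (adjusted p = 2.02e-07), the methionine enzyme MARS1 by -0.45 ± 0.07 and the serine enzyme SARS1 by -0.42 ± 0.07. Amino acid transporters went both ways, with 4 rises and 3 falls among 20 (5 and 2 under centring); the 4 rises were 1 to 2 when any 1 of the 6 arrays was left out. SLC38A2, the sodium-coupled neutral amino acid transporter that adapts to starvation, read 12.08, 12.05 and 12.08 at 0 h and 11.46, 11.49 and 11.48 at 6 h. Its fall of 0.59 ± 0.06 (adjusted p = 7.73e-10) lay beside a rise of SLC7A5, the leucine exchanger, by 0.29 ± 0.07 (adjusted p = 0.00342).

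The list of mTORC1 inhibitors, which also holds the mTORC1 target EIF4EBP1, had 6 falls among 9 measured genes. All 9 had a negative difference (median -0.33, or -0.18 with 4 falls under centring). DEPTOR, a subunit that binds and inhibits the mTOR kinase, had the second largest fall of the comparison. It read 8.03, 7.97 and 7.78 at 0 h and 6.59, 6.50 and 6.39 at 6 h. That leaves 37% of the 0 h level (difference -1.43 ± 0.12, adjusted p = 1.95e-11), with all 3 probe sets lower. SESN2, a leucine sensor and list member of the amino acid response too, read 7.34, 7.30 and 7.62 at 0 h and 6.82, 6.81 and 6.77 at 6 h (adjusted p = 0.000227). DDIT4, which acts through TSC2 to restrain mTORC1, fell by 0.53 ± 0.07, and EIF4EBP1, the translation repressor that mTORC1 phosphorylates, by 0.39 ± 0.06. FOXO targets fell in 8 of 13 genes with a median of -0.42 (5 of 13 and -0.27 under centring), among them KLHL24 by 0.71 ± 0.14 and CITED2, a regulator of hypoxic transcription, by 0.63 ± 0.14. TXNIP, the arrestin that lowers glucose uptake and is counted in that list, read 6.52, 6.93 and 6.41 at 0 h and 5.42, 5.70 and 5.93 at 6 h. Its difference of -0.94 ± 0.23 (adjusted p = 0.00417) rested on a probe set whose sign was shared by 3 of 5. Autophagy genes fell in 8 of 19 and rose in 2, but under centring 3 fell and 5 rose, and without array 61, 62 or 13 only 4 fell, and 5 without 60 or 14, with 1 rise without 60, 62, 13 or 14. With quantile normalization 4 of these genes fell and 3 rose. The kinase ULK1, which starts autophagy, read 7.57, 7.64 and 7.54 at 0 h and 6.67, 6.59 and 6.93 at 6 h (difference -0.85 ± 0.13, adjusted p = 7.46e-06).

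Ribosome biogenesis moved the other way. In this list 10 of 19 genes rose and none fell, with a median of 0.27, against a rise in 4.67% of all genes; under centring 15 rose. NOP58, a core protein of the box C/D particles that methylate ribosomal RNA, read 11.58, 11.67 and 11.62 at 0 h and 12.01, 12.12 and 12.06 at 6 h. The arrays did not overlap, and the rise was 0.44 ± 0.06 (adjusted p = 7.66e-07). NOP16, a nucleolar assembly factor of the large subunit, rose by 0.40 ± 0.06 (adjusted p = 3.04e-06), RRS1 by 0.38 ± 0.06 and NOLC1 by 0.28 ± 0.05. Nucleotide synthesis showed 2 calls among 14 genes (11 rises under centring; 1 rise without array 61, 62 or 14, and 1 fall without array 60 or 62), rises of PAICS (purines, 0.26 ± 0.05) and UMPS (pyrimidines, 0.18 ± 0.06); the latter was not called in 4 of the 6 fits that left out 1 array and had a difference of -0.01 over the mean of its probe sets. The share of that list called in either direction, 14.3%, was that of all genes tested.

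**Figure D2:**
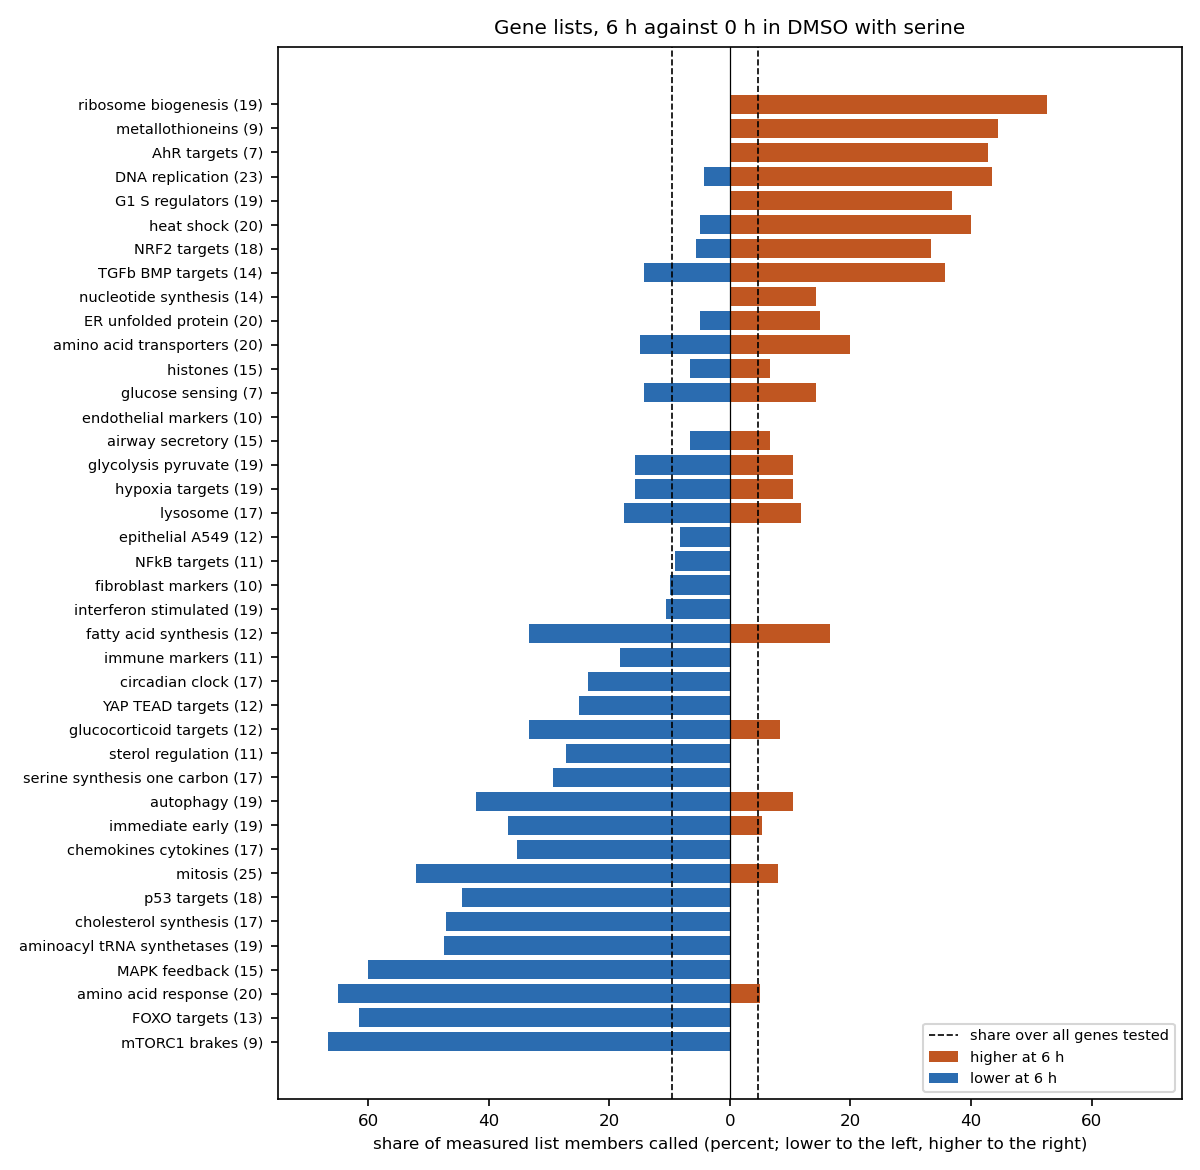
Share of measured members of each of 40 gene lists that rose (to the right) and fell (to the left) between 0 and 6 h in DMSO with serine, in percent, with the number measured in brackets. Dashed lines mark the shares over all 18239 genes, 4.67% higher and 9.62% lower. Ribosome biogenesis stands at the top with 10 rises of 19. The list of mTORC1 inhibitors and the mTORC1 target EIF4EBP1 stands at the bottom with 6 falls of 9.

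Regulators of the entry into S phase rose in 7 of 19 and fell in none (8 under centring), and DNA replication genes rose in 10 of 23 (15 under centring). POLA1, the catalytic subunit of DNA polymerase alpha, fell, but not under centring or without array 60 or 61. RRM2, the ribonucleotide reductase subunit that limits the supply of deoxynucleotides, read 11.16, 11.06 and 11.06 at 0 h and 11.67, 11.73 and 11.72 at 6 h. The 6 h arrays were all above those at 0 h, a 1.53-fold rise (difference 0.61 ± 0.06, adjusted p = 1.5e-09). MCM10, which helps to start the replicative helicase, read 8.41, 8.49 and 8.46 at 0 h and 9.01, 9.11 and 9.20 at 6 h (difference 0.65 ± 0.09, adjusted p = 4.54e-06). CDC6, which loads that helicase, rose by 0.50 ± 0.06 (adjusted p = 2.34e-07) and PCNA, the sliding clamp, by 0.25 ± 0.04. CCND1 (cyclin D1) rose by 0.29 ± 0.06 and CCNE1 (cyclin E1) by 0.30 ± 0.06.

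Mitotic genes were lower in 13 of 25 and higher in 2, TOP2A and CDK1 (1 without array 15), with a median of -0.18; under centring the median was -0.03, with 5 falls and 5 rises. Under quantile normalization the list median was -0.16, with 10 falls and 2 rises. CDC25C, the phosphatase that activates CDK1 at mitotic entry, read 8.63, 8.62 and 8.62 at 0 h and 8.02, 7.81 and 7.55 at 6 h. It fell to 56.3% of the 0 h level (difference -0.83 ± 0.11, adjusted p = 1.51e-06), and no array overlapped. CENPF, a kinetochore protein, fell by 0.59 ± 0.07 at its brightest probe set, but its other probe set went the other way and their mean did not pass. HMMR, a spindle-associated protein, read 10.96, 10.98 and 11.03 at 0 h and 10.59, 10.66 and 10.61 at 6 h (difference -0.37 ± 0.06, adjusted p = 8.78e-05). CCNB2 (cyclin B2) fell by 0.30 ± 0.05 (adjusted p = 0.000148), a call that centring took away.

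The cell cycle homology region (CHR), letters TTTGAA, is known from promoters of genes that peak late in the cycle. It was found, on either strand of the 250 bases before the start, in 14.2% of the 14492 genes and in 11 of the 21 mitotic genes with a RefSeq promoter; the CCAAT box, known beside it, was in 40.5% and in 18 of 21. Of the 11 with a CHR match 4 fell and 2 rose, and of the 10 without one 7 fell. The E2F letters TTTCCCGC were in 2.38% of all and in 7 of 21 replication genes, of which 3 rose, as did 6 of the 14 without them. The stretches of CDC25C (chr5:138331805-138331864, minus strand), CCNB2 (chr15:59105087-59105145, plus strand) and HMMR (chr5:163460580-163460631, plus strand, with 2 adjacent matches), which fell, and of PCNA (chr20:5126644-5126711, minus strand, match in the opposite orientation), which rose, are given with the match in capitals.
CDC25C: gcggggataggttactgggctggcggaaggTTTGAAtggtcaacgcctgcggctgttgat
CCNB2: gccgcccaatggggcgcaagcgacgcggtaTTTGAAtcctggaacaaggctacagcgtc
HMMR: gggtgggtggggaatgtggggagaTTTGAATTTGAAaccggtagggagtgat
PCNA: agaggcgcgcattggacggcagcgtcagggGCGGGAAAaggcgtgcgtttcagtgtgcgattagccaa

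Feedback regulators and outputs of MAPK signalling fell in 9 of 15 genes, and all 15 had a negative difference (median -0.44; 8 falls and -0.28 under centring). ETV5, a transcription factor downstream of ERK, read 9.74, 9.50 and 9.54 at 0 h and 8.88, 8.89 and 8.70 at 6 h. Its groups were apart by -0.77 ± 0.07 (adjusted p = 6.95e-10). SPRY2, an inhibitor of receptor tyrosine kinase signalling, read 7.85, 7.94 and 7.93 at 0 h and 7.21, 7.12 and 7.21 at 6 h (difference -0.73 ± 0.10, adjusted p = 1.17e-06). ETV4 fell by 0.60 ± 0.10, the phosphatase DUSP1 by 0.43 ± 0.10 and DUSP4 by 0.31 ± 0.06. Immediate early genes fell in 7 of 19, and KLF4 alone rose, though not without array 61 or 62 (5 falls and 1 rise under centring). KLF6, a zinc-finger factor, read 9.55, 9.79 and 9.58 at 0 h and 8.93, 8.96 and 8.90 at 6 h, a fall to 61% (adjusted p = 1.72e-07). Its relative KLF2 fell by 0.67 ± 0.09 (adjusted p = 3.67e-06). NR4A1, an orphan nuclear receptor induced within an hour of many stimuli, was lower at 6 h by 0.64 ± 0.10 (adjusted p = 1.38e-05). YAP targets showed 3 falls of 12 (2 falls and 1 rise under centring), the matricellular CCN2 by 0.79 ± 0.11, the kinase AXL by 0.46 ± 0.06 and the Hippo kinase LATS2, not called under centring, by 0.31 ± 0.08.

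Chemokines and cytokines fell in 6 of 17 and rose in none, with a list median of -0.03; under centring 4 fell and 1 rose and the median was 0.12. CXCL1, a neutrophil chemokine, had the largest fall of all called genes. It read 8.99, 8.89 and 9.01 at 0 h and 7.27, 7.38 and 7.70 at 6 h. No array came near the other group, and 35.1% of the 0 h level was left (difference -1.51 ± 0.15, adjusted p = 3.71e-09). Its neighbours in the family CXCL2 and CXCL3 differed by -0.79 ± 0.15 and -0.70 ± 0.18 (adjusted p = 0.000225 and 0.00541), and LIF, a cytokine of the IL-6 family, by -0.59 ± 0.08. These CXC transcripts are close in sequence, and cross-hybridization was not examined. Other targets of NF-kB gave 1 call of 11, a fall of the mitochondrial superoxide dismutase SOD2 (-0.49 ± 0.13) that was called neither under centring nor under quantile normalization. Among interferon-stimulated genes 2 of 19 fell (1 fall and 2 rises under centring), IRF9 by 0.76 ± 0.09 (adjusted p = 1.72e-07) and ISG20, an exonuclease, by 0.33 ± 0.07, the latter not under centring. The shares that fell, 9.09% of the NF-kB list and 10.5% of the interferon list, lay near the 9.62% of all genes.

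Targets of TGF-beta and BMP signalling gave 5 rises and 2 falls among 14 (8 and 2 under centring; 1 fall without array 13). The rises included the inhibitors of DNA binding, which are direct BMP targets. ID2 read 10.44, 10.54 and 10.26 at 0 h and 11.18, 11.33 and 11.30 at 6 h, ID3 11.02, 11.11 and 10.93 at 0 h and 11.50, 11.54 and 11.40 at 6 h and ID4 4.71, 5.17 and 5.03 at 0 h and 6.29, 6.33 and 5.72 at 6 h. None of the 3 genes overlapped between groups. The differences were 0.86 ± 0.07 (adjusted p = 1.27e-11), 0.46 ± 0.05 (adjusted p = 4.22e-08) and 1.14 ± 0.24 (adjusted p = 0.000715). BMP4, a ligand of the pathway, read 9.84, 9.91 and 9.82 at 0 h and 9.54, 9.22 and 9.37 at 6 h and fell by 0.48 ± 0.08 (adjusted p = 6.3e-05). GREM1, a secreted BMP antagonist outside that list, read 6.12, 5.40 and 6.45 at 0 h and 7.13, 7.17 and 7.34 at 6 h. The 0 h arrays were spread over more than 1 log2 unit, and the rise of 1.23 ± 0.31 (adjusted p = 0.0052) was not called without array 14.

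Targets of the aryl hydrocarbon receptor, a sensor of planar aromatic compounds and of some tryptophan products, rose in 3 of 7 and fell in none (6 under centring; 1 without array 15). CYP1B1, a cytochrome P450 of that battery, read 9.85, 9.84 and 9.75 at 0 h and 10.84, 10.84 and 10.94 at 6 h. The 6 h arrays lay 2.08-fold higher with almost no spread in either group (difference 1.06 ± 0.08, adjusted p = 4.96e-12). AHRR, the receptor's repressor, read 5.68, 5.91 and 5.32 at 0 h and 6.54, 6.69 and 6.40 at 6 h (difference 0.91 ± 0.23, adjusted p = 0.00565), and 1 of its 2 probe sets was higher. CYP1A1, dim throughout, read 4.29, 4.19 and 3.88 at 0 h and 4.86, 4.88 and 4.36 at 6 h. Its mean at 0 h was below that of the nonspecific probe sets, so no size is given; its call, counted among the 3 rises (adjusted p = 0.00942), was lost without array 60, 61 or 15, and that of AHRR without array 15.

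Metallothioneins, cysteine-rich proteins that bind zinc and copper, and their regulators rose in 4 of 9 and fell in none (4 under centring). MT1X read 9.66, 9.49 and 9.72 at 0 h and 10.49, 10.52 and 10.60 at 6 h. All 6 h arrays were above all at 0 h, a 1.88-fold rise (difference 0.91 ± 0.07, adjusted p = 1.1e-11). MT1F read 8.46, 8.29 and 8.37 at 0 h and 9.16, 9.17 and 9.26 at 6 h (difference 0.82 ± 0.08, adjusted p = 5.15e-09). MT2A rose by 0.34 ± 0.05 and the zinc exporter SLC30A1 by 0.36 ± 0.06 (adjusted p = 2.87e-05). The metallothionein transcripts are near-identical copies, so probe sets may share signal among them. Heat shock genes rose in 8 of 20, and the small chaperone HSPB1 fell, though not without array 61, 62 or 13 (15 rises and no fall under centring). HSPA1B, an inducible HSP70, read 10.22, 10.27 and 10.27 at 0 h and 10.82, 10.94 and 10.75 at 6 h. The groups did not overlap and differed by 0.58 ± 0.06 (adjusted p = 1.03e-08). Its near-identical copy HSPA1A differed by 0.51 ± 0.05 (adjusted p = 1.35e-09), and the co-chaperone DNAJA1 by 0.47 ± 0.06. NRF2 targets rose in 6 of 18 and fell in 1, TKT (14 rises and no fall under centring; no fall without array 61, 62 or 15); SRXN1, which repairs oxidized peroxiredoxins, rose by 0.35 ± 0.05 (adjusted p = 6.44e-06), and GCLC, the catalytic subunit of glutathione synthesis, by 0.31 ± 0.07. The unfolded protein list gave 3 rises of 20 (13 under centring), with MANF, a secreted ER protein, at 0.34 ± 0.06. It gave 5 rises without array 62, 4 without array 14 and 2 without array 60, 61, 13 or 15. Its 1 fall was that of HERPUD1, which serves ER-associated degradation (-0.36 ± 0.07, not called under centring).

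Targets of p53 fell in 8 of 18 and none rose (3 falls and 1 rise under centring; 5 falls without array 60, 13 or 14). Quantile normalization left 4 falls and no rise. BBC3, which encodes the pro-apoptotic PUMA, read 8.19, 8.22 and 8.25 at 0 h and 7.17, 7.13 and 7.04 at 6 h. The groups were tight and apart, and the difference was -1.11 ± 0.08 (adjusted p = 7.29e-13), or 46.4% of the 0 h level. GDF15, a secreted stress cytokine driven by p53 and by ATF4, read 10.29, 10.18 and 10.16 at 0 h and 9.64, 9.42 and 9.50 at 6 h (difference -0.69 ± 0.08, adjusted p = 1.95e-07). Cholesterol synthesis enzymes fell in 8 of 17 with a median of -0.26 (5 falls and 1 rise under centring, median -0.11). Quantile normalization gave 8 falls and no rise, with a median of -0.20. LSS, the cyclase that makes lanosterol, fell by 0.54 ± 0.10, MSMO1 by 0.49 ± 0.08 and SQLE, the squalene epoxidase, by 0.39 ± 0.06 (adjusted p = 1.27e-05). Regulators of sterol level gave 3 falls of 11 and no rise (2 falls and 1 rise under centring). INSIG1, which holds the sterol sensor SCAP in the endoplasmic reticulum and is itself a target of SREBP, read 10.83, 10.80 and 10.82 at 0 h and 10.27, 10.25 and 10.18 at 6 h. It fell by 0.58 ± 0.08 (adjusted p = 3.5e-06), and so did the cholesterol exporter ABCA1, by 0.70 ± 0.13, at 1 of its 3 probe sets. Fatty acid synthesis gave 4 falls and 2 rises among 12 (2 falls and 3 rises under centring; 2 falls without array 61, no rise without array 61, 62 or 13 and 1 without 15), with falls of FASN, the fatty acid synthase, by 0.43 ± 0.11 and of ACSS2, which activates acetate, by 0.58 ± 0.10.

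Glycolysis gave 2 rises and 3 falls among 19 genes (6 rises and no fall under centring; 1 rise without array 60, 61, 62 or 14 and none without 15). The glucose transporter SLC2A1 read 10.22, 10.32 and 9.95 at 0 h and 10.48, 10.44 and 10.57 at 6 h (difference 0.33 ± 0.08, adjusted p = 0.00522; not called without array 15). PFKFB3, which makes the activator of phosphofructokinase, is counted among the glucose sensing genes below. It read 11.91, 11.85 and 11.72 at 0 h and 12.33, 12.38 and 12.37 at 6 h. It rose by 0.53 ± 0.06 (adjusted p = 2.08e-07) with no overlap. PKM, the pyruvate kinase that makes pyruvate, read 10.67, 10.64 and 10.62 at 0 h and 10.56, 10.39 and 10.43 at 6 h; its difference of -0.18 ± 0.07 did not pass (adjusted p = 0.054). Hypoxia targets gave 2 rises and 3 falls among 19 (4 and 3 under centring; 1 rise without array 15), and the circadian clock no rise and 4 falls of 17, 1 rise and 1 fall under centring and 1 fall without array 62 and 2 without 14; BHLHE40, a repressor of the clock that also answers to hypoxia, fell by 0.61 ± 0.09 (adjusted p = 1.4e-05). Histones gave 1 rise and 1 fall among 15 (5 and 0 under centring; 2 rises without array 13). Lysosomal genes gave 2 rises and 3 falls among 17 (4 and 1 under centring), with 1 fall without array 61, 62, 14 or 15, 1 rise without array 60, 61, 62 or 14 and none without 15. Airway secretory genes gave 1 rise and 1 fall among 15 (3 and 1 under centring), with a rise in only the fit without array 60 of those that left out 1, and 2 falls without array 60 or 14. Histones and airway secretory genes, with 13.3% called in each list, lay near the 14.3% called over all genes. Glucose sensing genes gave 1 and 1 among 7 (1 and 1 under centring; 2 falls without array 14) and glucocorticoid-responsive genes 1 and 4 among 12 (1 and 3 under centring); in the last list TSC22D3 (GILZ) fell by 0.74 ± 0.08 (adjusted p = 4.28e-08).

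Among the 15 largest rises and 15 largest falls, several genes belong to none of these lists. ALDH1A3, which makes retinoic acid, read 8.52, 8.39 and 8.50 at 0 h and 9.32, 9.55 and 9.72 at 6 h, a 2.09-fold rise (adjusted p = 6.91e-07). MALAT1, a long nuclear RNA, read 11.53, 11.55 and 11.10 at 0 h and 12.55, 12.46 and 12.29 at 6 h and rose by 1.04 ± 0.17 (adjusted p = 2.41e-05), but 1 of its 3 probe sets was lower and the mean of the probe sets was not called. RBM14, a nuclear coactivator of paraspeckles, read 9.81, 9.88 and 9.88 at 0 h and 10.66, 10.64 and 10.69 at 6 h. It rose 1.75-fold with hardly any spread (adjusted p = 9.7e-12). The largest rise, PUS7L, a pseudouridine synthase relative, read 5.86, 6.41 and 5.75 at 0 h and 7.25, 7.14 and 7.73 at 6 h (adjusted p = 6.41e-06), and its other probe sets went the other way. CGAS, the sensor of cytosolic DNA, went from a mean of 4.13, under that of the nonspecific probe sets, to 5.07 (adjusted p = 0.00114). Among the falls, ARID5B, a DNA-binding cofactor of histone demethylation, read 7.38, 7.45 and 7.34 at 0 h and 6.11, 5.90 and 6.24 at 6 h. The groups were apart by -1.31 ± 0.11 (adjusted p = 6.3e-11), with 2 of 3 probe sets lower. GATA3, a lineage transcription factor, read 7.62, 7.50 and 7.51 at 0 h and 6.64, 6.38 and 6.23 at 6 h (difference -1.13 ± 0.15, adjusted p = 1.18e-06). PPL (periplakin), a linker of desmosomes to filaments, fell by 1.20 ± 0.13.

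**Figure D3:**
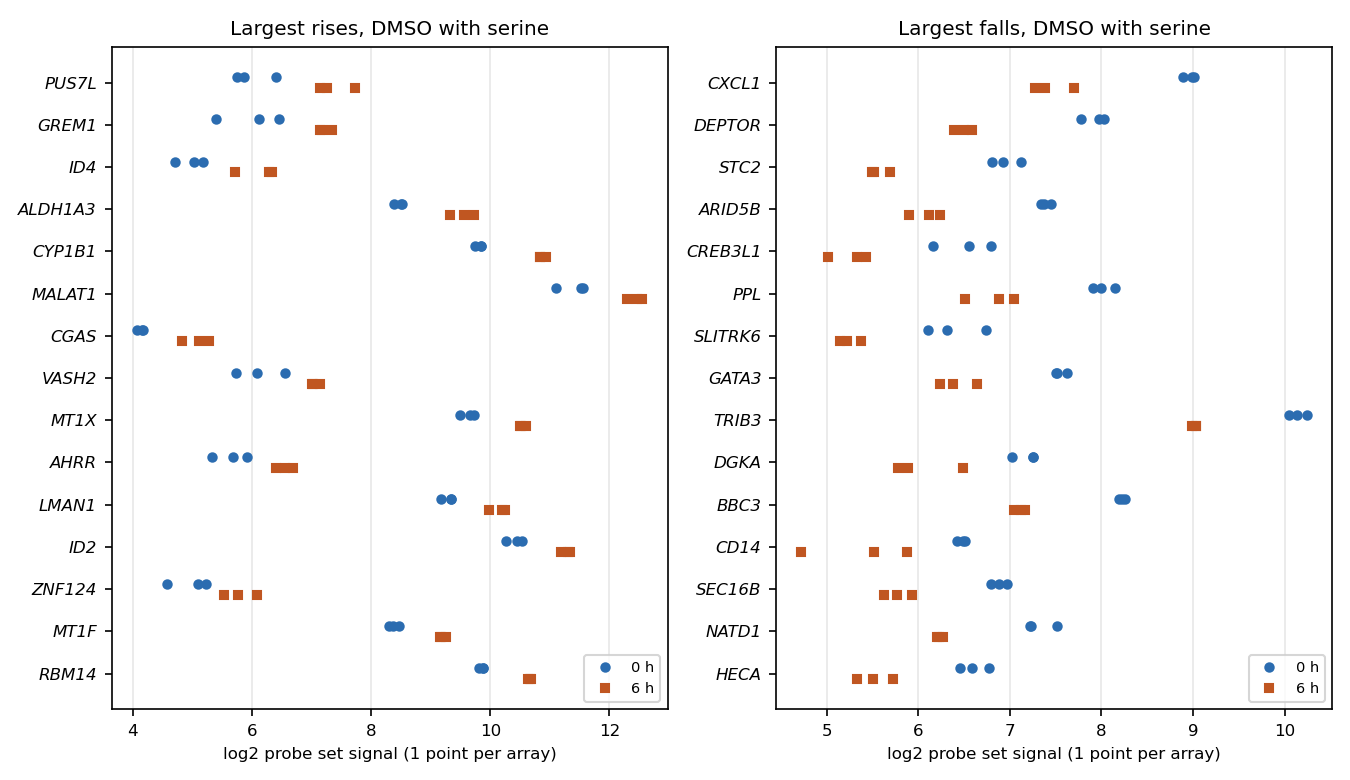
Log2 probe set signal on each array at 0 h (circles) and 6 h (squares) in DMSO with serine for the 15 largest rises (left) and the 15 largest falls (right) among called genes without overlap. CXCL1 lies between 8.89 and 9.01 at 0 h and between 7.27 and 7.70 at 6 h, and CYP1B1 between 9.75 and 9.85 and between 10.84 and 10.94.

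Samples of the same arm at 1.5 h (2 arrays) and 24 h (3 arrays) place these values in a course. Their titles end in 49 and 50 and in 96 to 98, so array block and time cannot be told apart here either. The control bioC read 10.42, 10.41 and 10.555 at 24 h against 10.07, 10.08 and 10.02 at 0 h. For phe the values were 6.76, 6.42 and 7.10 against 7.69, 7.50 and 7.42, while dap overlapped between 24 h and 0 h. At 1.5 h dap read 9.97 and 10.04 against 9.49, 9.55 and 9.41 at 0 h. The 1.5 h arrays read 9.96 and 9.93 for bioC, also without overlap with 0 h, while phe overlapped. The part of these shifts in the course was not tested. Against 0 h, 348 genes rose and 675 fell at 1.5 h, 5.61% of those tested (1.91% higher, 3.7% lower). At 24 h 1067 rose and 2698 fell, 20.6% (5.85% higher, 14.8% lower), and between 1.5 and 6 h 262 rose and 386 fell, 3.55% (1.44% higher, 2.12% lower). Under median centring there were 1978 rises and 226 falls at 1.5 h and 5779 rises and 740 falls at 24 h; quantile normalization gave 417 and 415, and 1303 and 1420. Counts of gene lists at these times are given on the deposited scaling alone. These comparisons share arrays with that of 6 h, so their values are set side by side only. The 1.5 h group is 2 arrays: without array 49 the calls at 1.5 h were 261 and those from 1.5 to 6 h 260, and without array 50 they were 311 and 242. Leaving out array 15 gave 576 calls at 1.5 h, and leaving out array 62 gave 384 from 1.5 to 6 h. NR4A1 averaged 9.28 at 0 h, 11.93 at 1.5 h, 8.64 at 6 h and 9.34 at 24 h. It was high at 1.5 h alone, and the fall from 1.5 to 6 h was -3.29 ± 0.11 (adjusted p = 4.36e-23). Immediate early genes as a list gave 7 rises and 2 falls at 1.5 h, with a median of 0.26, before the 7 falls at 6 h. CCN2 likewise went from 10.28 to 11.22 at 1.5 h, then 9.49 and 9.73. Targets of TGF-beta and BMP gave 8 rises and no fall at 1.5 h. CYP1B1 averaged 9.81, 11.88, 10.87 and 9.63 at the 4 times, so at 6 h it was below its level at 1.5 h (difference -1.01, adjusted p = 1.67e-10), and at 24 h its difference from 0 h was -0.18 (adjusted p = 0.0947). ID2 had the same order of levels in the first 3 times, with 11.55 at 1.5 h, and SLC30A1 went from 10.02 to 11.04 at 1.5 h and 10.38 at 6 h.

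Other genes were not called at 1.5 h. TRIB3 averaged 10.14, 10.11, 9.02 and 9.50, with a difference at 1.5 h that did not pass (-0.04, adjusted p = 0.868) and a fall against 0 h at 24 h (-0.64, adjusted p = 3.05e-08). The amino acid response list gave 2 falls and 2 rises of 20 at 1.5 h and 15 falls of 20 at 24 h, and ASNS averaged 11.92, 11.82, 11.56 and 11.27. MAPK feedback genes gave 2 rises at 1.5 h and 4 falls of 15 at 24 h; ETV5 averaged 9.59, 9.50, 8.82 and 9.61, at 24 h no longer different from 0 h (0.01, adjusted p = 0.921). BBC3 by contrast fell by 1.5 h (-1.01, adjusted p = 7.87e-11), as did KLF6 (-0.80, adjusted p = 4.05e-07). Ribosome biogenesis gave 1 rise of 19 at 1.5 h and 8 falls at 24 h: NOP58 averaged 11.62, 11.82, 12.06 and 11.65. DNA replication gave 11 falls and 3 rises of 23 at 24 h, where CDC6 (-0.30) and MCM10 (-0.37) were below 0 h, and heat shock 7 falls and 2 rises of 20. TXNIP averaged 6.62, 5.87, 5.68 and 7.50, so it was higher at 24 h than at 0 h (0.88, adjusted p = 0.00541).

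**Figure D4:**
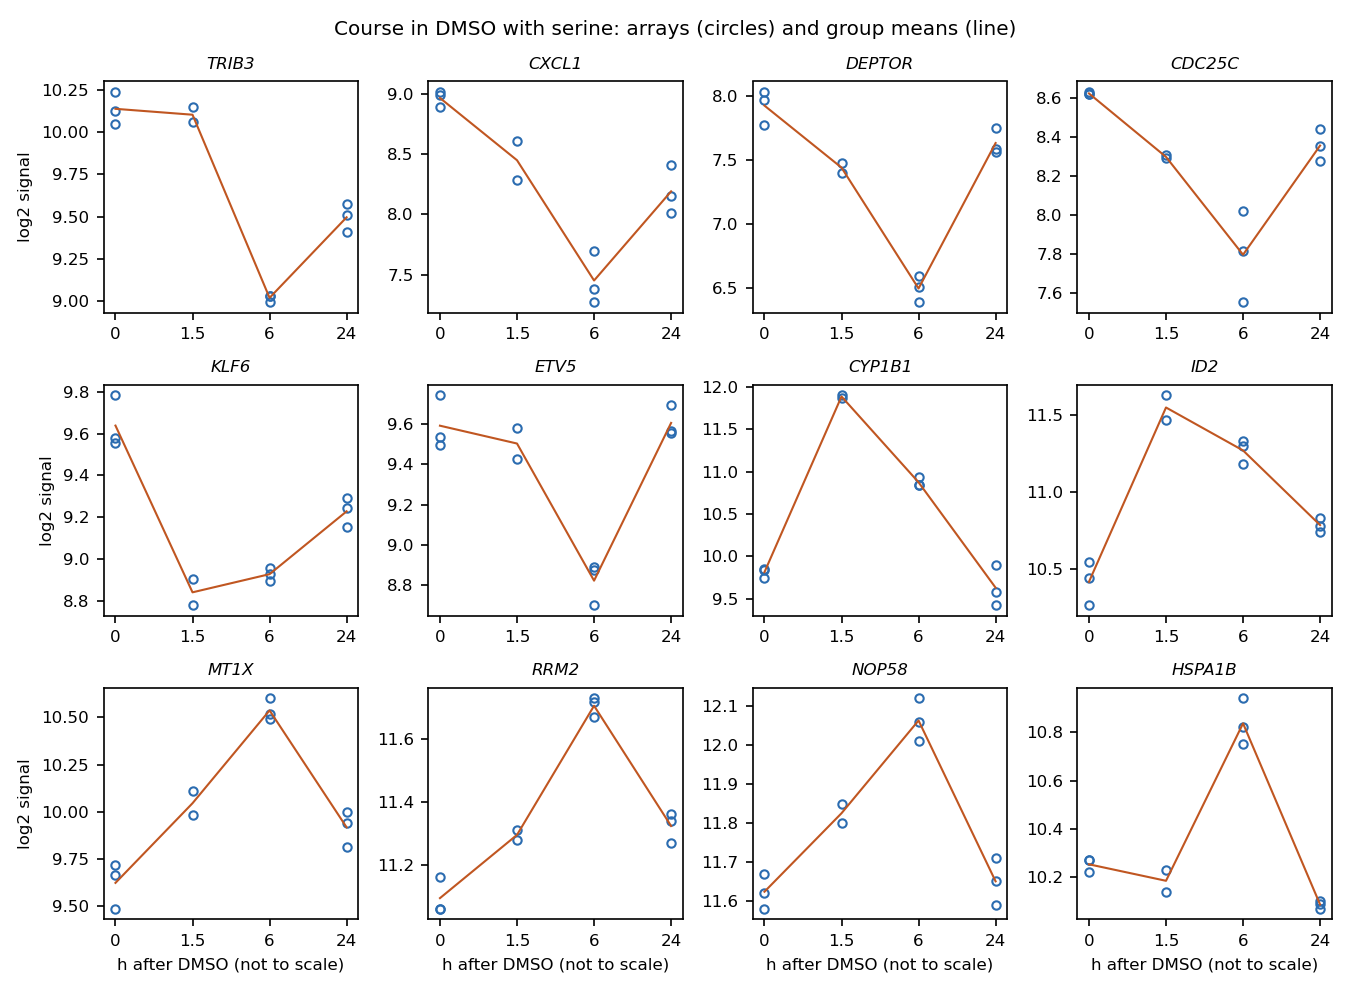
Log2 probe set signal of 12 named genes at 0, 1.5, 6 and 24 h in DMSO with serine, with circles for arrays, a line through group means, times not to scale and a separate vertical range in each panel. CYP1B1 reads 9.81, 11.88, 10.87 and 9.63 on average and TRIB3 10.14, 10.11, 9.02 and 9.50.

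The other arms were run on separate arrays of the same number blocks. With compound 16 and serine, 908 genes rose and 1739 fell between 0 and 6 h (14.5%; 4.98% higher, 9.53% lower). Of the calls in DMSO with serine, 1464 were shared in the same direction, 56.2% of these calls and 55.3% of the compound's, and 2 were opposite. Over all genes the differences of both arms correlated with r = 0.63 (18239 genes, which share arrays, RNA preparations and normalization within an arm and are not independent). The test of the difference between both arms called 0 genes (0%) in limma, with a smallest adjusted p of 0.288 and 1100 genes at an unadjusted p under 0.05, and at most 1 gene in any other setting. That does not show that the courses were alike: the median SE of this contrast was 0.17. In the compound's arm CXCL1 differed by -1.35, TRIB3 by -0.99, CYP1B1 by 1.16, MT1X by 0.97 and NOP58 by 0.42. Its amino acid response list gave 13 falls and 1 rise of 20, its ribosome biogenesis list 12 rises of 19 and its MAPK feedback list 11 falls of 15.

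In DMSO without serine, 1487 genes rose and 2600 fell between 0 and 6 h (22.4%; 8.15% higher, 14.3% lower). Of the calls with serine 1622 were shared in the same direction, 62.2% of these calls and 39.7% of those without serine, and 23 were opposite; r over genes was 0.58. With compound 16 and no serine (1172 rises, 2448 falls; 19.8%, with 6.43% higher and 13.4% lower) 1261 calls were shared, 48.4% and 34.8%, with 87 opposite. Genes that moved in both media included CXCL1 (-1.34 without serine), CYP1B1 (1.28), MT1X (1.19), ID2 (0.83), RRM2 (0.74) and CDC25C (-0.87), each called there as well.

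The change from 0 to 6 h differed between media in 87 genes (0.477%), of which 27 (0.148%) lay higher with serine than without and 60 (0.329%) lay lower. Of the 87, 34 fell and 11 rose with serine and 42 were not called; 22 fell with serine and rose without it. Of the 60, 13 were members of the amino acid response list. STC2 had a difference of -3.14 ± 0.24 between media (adjusted p = 8.4e-12): it fell by 1.38 with serine and rose by 1.76 without it. MTHFD2 fell by 0.45 with serine and rose by 0.90 without it (difference -1.35 ± 0.08, adjusted p = 7.94e-14). The same opposite calls held for CARS1 (difference -1.34, adjusted p = 7.12e-13), CHAC1 (-1.51, adjusted p = 7.66e-05) and ASNS (-0.76, adjusted p = 1.03e-06). TRIB3 differed between media by -1.19 (adjusted p = 3.41e-10), with 0.07 and no call without serine. PSAT1, not called with serine, differed by -1.13 (adjusted p = 1.79e-08). In the medium without serine 12 of the 20 amino acid response genes rose and 1 fell.

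DEPTOR and BBC3 fell in both media, by more with serine. DEPTOR differed by -0.83 ± 0.16 between media (adjusted p = 0.00548) and BBC3 by -0.56 ± 0.11 (adjusted p = 0.00445). Among genes that rose with serine, RBM14 rose by 0.30 without serine (difference between media 0.50, adjusted p = 0.00106). The HSP70 gene HSPA1B had a difference of 0.41 (adjusted p = 0.0128) and NOP16 of 0.33 (adjusted p = 0.039), with values of 0.18 and 0.07 without serine. In the ribosome biogenesis list 4 of 19 genes rose without serine, against 10 with it; the difference itself was called for NOP16 and RRS1. The poly-A controls differed between 0 and 6 h by unequal amounts in the 2 media: dap by 0.77 with serine and 0.88 without, thr by 0.59 and 0.66, phe by 0.31 and 0.67 and lys by 0.11 and 0.70. Their shift was thus not the same in both media, and its part in these differences was not tested.

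**Figure D5:**
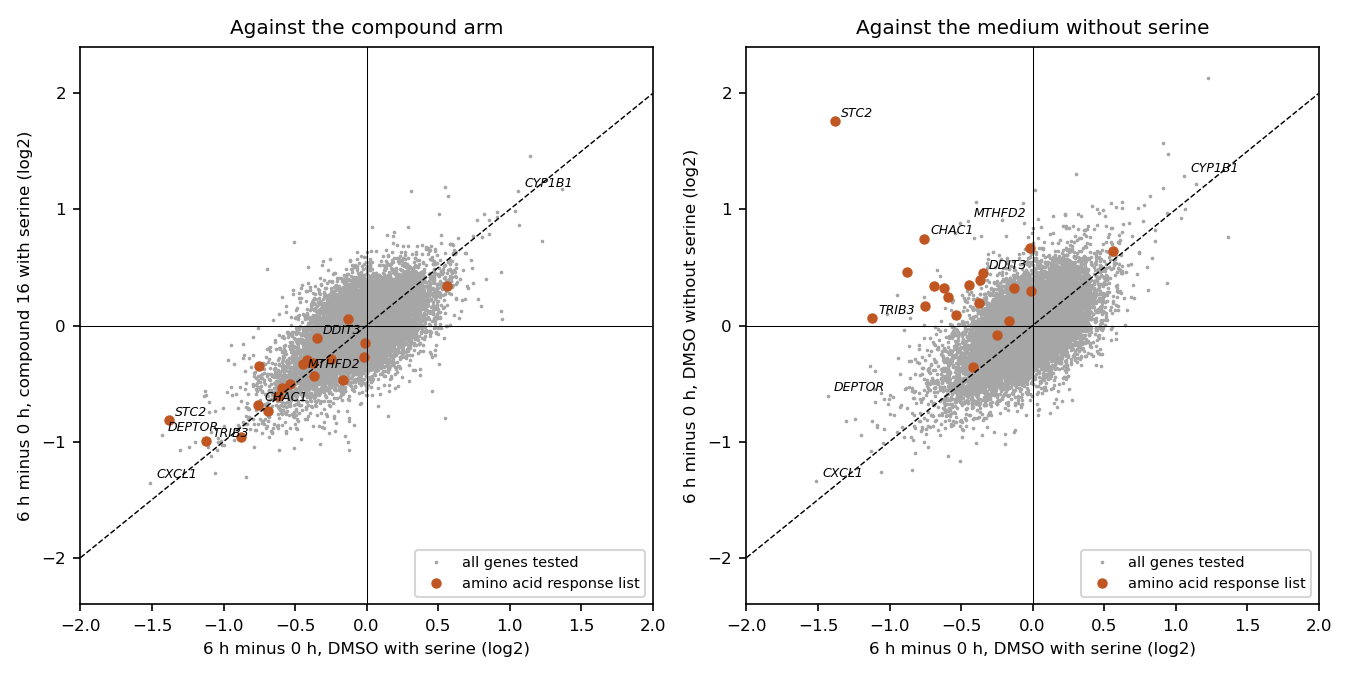
Log2 difference between 6 and 0 h in DMSO with serine (horizontal) against that in the compound arm with serine (left) and in DMSO without serine (right) for all 18239 genes (grey) and the 20 amino acid response genes (orange); the dashed line marks equal values. STC2 lies at -1.38 and -0.82 on the left and at -1.38 and 1.76 on the right.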

How the data were processed

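Transcripts were measured in A549 cells on 50 Affymetrix HG-U219 arrays in 17 groups, of which 6 arrays form the comparison described. The values deposited are log2 signals of probe sets, which the authors made by RMA, per the submitters' processing notes. The notes also name limma; which versions they used is not given in the sources used here. RMA normalizes between arrays and so removes a shift shared by all genes. Every column matched 1 sample, and 0 columns were without one.

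Of 49386 probe sets 45253 carry 1 symbol in the platform annotation, 1327 carry more, 2713 carry none and 93 are controls by Affymetrix. Each of 18239 genes was represented by its brightest probe set, by the mean of all arrays (11822 genes had several). Values entered 1 limma fit of 17 group means as deposited, with eBayes (R 4.3.3, limma 3.58.1; 33 residual and 3.70 prior degrees of freedom), and p-values were adjusted by Benjamini-Hochberg over all genes within a comparison. The median SE was 0.12. The number of arrays limits the precision. Arrays of the comparison of 6 h with 0 h were simulated with 100 genes changed by 0.5 and 100 by 1 (log2) among 18239. The fit called 60% and 98% of them, with 8 unchanged genes called. The cutoff on adjusted p depends on how many genes change, and far fewer changed there than the 2607 called in the data. These shares therefore do not give the sensitivity of the comparison itself.

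The comparison and 40 gene lists (631 genes, 596 with a value) were chosen with earlier results of these data known, and no list was tested as a set. Named genes were TXNIP, PKM and ASNS with PHGDH, PSAT1, PSPH, MTHFD2 and SHMT2; the 15 largest rises and 15 largest falls among called genes without overlap; up to 4 called members of each list with the smallest p; and the 5 largest called differences each way for both contrasts between arms. Loci named by number were skipped. Members that stand alone against their list, and those named by a promoter match, came on top.

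Alternatives were: dropping genes whose mean signal was under percentile 40, quantile normalization, centring arrays on their medians, fitting only the arrays of a comparison, a trended robust prior, array weights, the mean of all probe sets of a gene, and leaving out each array. Promoter letters are from RefSeq (GRCh38.p14), matched by symbol, in the 250 bases before the start.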

Additional observations from a re-analysis of the deposited data

Results flagged for a closer look

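A test of the difference between media singled out the following results: the change from 0 to 6 h in DMSO with serine minus that in DMSO without serine, on the log2 scale, at an adjusted p under 0.05 in limma. It was called for 87 genes of 18239.

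Of the genes named, most had a more negative change with serine. Amino acid response genes and enzymes of serine and folate metabolism lead: STC2 at -3.14, CHAC1 at -1.51, MTHFD2 at -1.35, NUPR1 at -1.34, TRIB3 at -1.19, PSAT1 at -1.13, CBS at -1.07, SESN2 at -0.94, VEGFA at -0.84, ATF4 at -0.79, HERPUD1 at -0.79, ASNS at -0.76, DDIT4 at -0.62 and PSPH at -0.57. The aminoacyl-tRNA synthetases CARS1 (-1.34), MARS1 (-0.83) and AARS1 (-0.66) stand with them. TUBE1, a tubulin of the centriole, had -1.46, the mTOR inhibitor DEPTOR -0.83, the apoptosis gene BBC3 -0.56 and TSC22D3 -0.53.

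A more positive change with serine was called for the dim genes UGT2B11 (0.86), ARMCX4 (0.81), PRB4 (0.69) and NKPD1 (0.66), whose means at 0 h with serine lay below that of the nonspecific probe sets (4.18) and none of which was called between 0 and 6 h there, and for the kinase gene MKNK2 (0.72), likewise not called there. RBM14 (0.50), HSPA1B (0.41), RRS1 (0.35), HSPA1A (0.34) and NOP16 (0.33) rose with serine and had the larger change there.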

How the results depend on the processing

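Against 2607 calls at 6 h, 4098 were made with arrays centred on their medians (1460 shared in the same direction) and 805 with only the 6 arrays fitted (764 shared), which leaves fewer arrays to estimate the spread; the other planned settings gave 2306 to 2978, and leaving out 1 array 1873 to 2149. The 87 differences between media became 133 with dim genes left out, 27 with only the arrays compared and 132 with a trended robust prior, and 58 to 92 with 1 array left out. Between DMSO and compound 16 the count was 0 to 1 in all settings, with 1 call without array 10 of the compound at 0 h. Calls at 1.5 h went from 1023 to 2204 under centring, 34 with only the arrays compared and 1594 with array weights, and were 261 to 794 with 1 array left out. From 1.5 to 6 h, 648 became 45 with only the arrays compared and 242 to 562 with 1 left out. At 24 h, 3765 became 6519 under centring and 1917 with only the arrays compared, and 2667 to 3244 with 1 left out. Apart from the smaller number of arrays, the causes were not tested.

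Among named genes 54 lost their call at 6 h with only the 6 arrays fitted, 18 under centring, 17 with the mean of all probe sets, 8 under quantile normalization, 2 with array weights and 1 with a trended robust prior. Some signs turned: MKNK2, not called (-0.05), went to 0.016 under quantile normalization and 0.105 under centring, and ranged from -0.079 to 0.0038 with 1 array left out. SCD went to 0.001 under centring. With the mean of all probe sets PER2 was 0.161, POSTN 0.027 and UMPS -0.0083. ARMCX4, not called, ranged from -0.043 to 0.123 with 1 array left out. No paired analysis was possible because the numbers in the titles run through the series and no groups share them. The nonspecific probe sets averaged 4.18 at 0 h and 4.22 at 6 h, and differences of genes near that level are bounded by background.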
